A study of Rattus norvegicus with 16 samples.

Results

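Histone modifying enzymes were examined in the transcriptomes of white blood cells and hippocampus of rats with a traumatic brain injury. Members were the genes whose symbol begins with Kdm, Hdac, Sirt, Kat, Setd, Prdm, Ezh, Suv or Ehmt and a digit, together with Crebbp, Bap1 and Dot1l; a symbol on several rows was represented by its most abundant row. The symbol alone decided which genes were members. The list of symbols, with Bap1 by its full name, was set with earlier results of these data known. The rule found 55 genes of 16638 different symbols, 53 of them in the white blood cell table and 54 in the hippocampal table, with 52 in both. By role they were 6 sirtuins, 9 zinc-dependent deacetylases, 6 acetyltransferases, 12 lysine demethylases, 15 methyltransferases of the SET and Dot1l kinds, 5 members of the PRDM family and the deubiquitinase Bap1. The remaining gene, Kat3, shares only its letters with the acetyltransferases: RefSeq gives this rat symbol as a synonym of the kynurenine aminotransferase Kyat3, an enzyme of tryptophan breakdown. The rule also named Ep300 and Asxl1 and covered Sirt1, Hdac6 and Hdac7. It found no row with any of these as its only symbol, so they were not analysed here. Dot1l had a row of its own in CA1 only, as did Kdm2b, which in white blood cells shared a row with Camkk2. Sirt7 had one in white blood cells only and shared a row with Mafg in CA1.

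DNA in the nucleus is wound around histone proteins, whose tails carry small chemical groups. Acetyltransferases add acetyl groups, which go with open and transcribed chromatin, and deacetylases, zinc-dependent or, in the sirtuins, dependent on NAD, take them off. Methyltransferases and demethylases write and erase methyl groups on lysines, which mark active or silent genes according to the lysine, while Bap1 removes ubiquitin from histone H2A and so opposes the polycomb repressive complex that puts it there. In neurons such enzymes are known for their part in memory formation, and in blood for their part in the choice of lineage and the activation of immune cells.

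The animals were male Sprague-Dawley rats that had undergone either fluid percussion, an experimental traumatic brain injury (TBI), or a sham operation, and tissue was taken 1 week later, after tests of learning. The 4 groups were white blood cells (WBC) of TBI and of sham rats and the CA1 field of the hippocampus of TBI and of sham rats, with 4 libraries in each and 16 in all. RNA with a poly-A tail was sequenced, with expression given as FPKM, which corrects fragment numbers for transcript length and library size, so that levels can be set against each other between genes of different length. Labels do not say that samples came from separate animals, so p-values measure the spread between these samples, which may in part be technical.

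The number of fragments behind each FPKM is unknown. Libraries of WBC correlated with each other at a Pearson's r of 0.910 to 0.968 across tested rows (log2 values), and those of CA1 at 0.967 to 0.981. The summed FPKM was lowest in TBI 1 among the WBC libraries (482286, against 612627 to 832725 in the other 7). Sums of the CA1 libraries were larger, from 1.73e+06 in TBI 4 to 3.52e+06 in sham 2, so the scale of FPKM differs between the tissues. All 11 pyramidal neuron markers were present above 1 FPKM in CA1. In WBC, 12 of 14 T cell markers, all 11 B cell markers and all 10 NK and cytotoxic markers with a row were above 1 FPKM. Markers of red cells and platelets were present in the WBC libraries as well, at unequal levels. The 15 erythroid markers measured summed to 5985, 12790, 14280 and 10789 FPKM in the TBI libraries, against 14631, 23167, 19773 and 17387 FPKM in the sham libraries, and all 15 were lower in TBI; Gata1 was the one under 1 FPKM, and none was at 0. All 10 platelet markers were lower too, with sums of 2800.1 to 8088 FPKM in TBI, against 8617 to 11765 FPKM in sham. The groups did not overlap in either sum. NK and cytotoxic markers were higher in TBI for 9 of 10 (sums of 407 to 594 FPKM, against 353 to 459 FPKM in sham) and T cell markers for 11 of 14 (1166 to 1778 FPKM, against 1155 to 1568 FPKM in sham), with overlapping sums. B cell markers were lower in TBI for 10 of 11 and neutrophil markers for 8 of 11 (526 to 1454 FPKM, against 884 to 1297 FPKM in sham), also with overlapping sums. The part of these markers in the differences of the WBC members was not tested. In a bulk sample, fewer cells of a type and less RNA per cell cannot be told apart.

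Sirt2, a mostly cytoplasmic sirtuin that also deacetylates tubulin, had the highest level of the group in both tissues. Its mean over 8 libraries was 590.3 FPKM in WBC and 131 FPKM in CA1, above 99.0% and 95.8% of the rows tested there. The tables of the tissues were normalized separately, so levels are ranked within a tissue and only set side by side between them. In WBC the next members were Bap1 (54.7 FPKM), Sirt7, a nucleolar sirtuin (41.3 FPKM), Kdm2a, a demethylase that binds CpG islands (37.1 FPKM), Hdac5, a class IIa deacetylase that shuttles out of the nucleus on calcium signals (35.4 FPKM), and Setd8, which puts the first methyl group on a lysine of histone H4 (35.3 FPKM). The ranges of these 5 over 8 libraries, TBI and sham together, overlap, so their order over 8 libraries is not resolved. In the sham libraries alone Bap1 (62.1 to 79.9 FPKM) lay above the others, of which Setd8 reached the highest value, 47.7 FPKM.

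Of the 3 sirtuins of the mitochondrion, Sirt5 and Sirt3 ranked high in CA1 and Sirt4 low. Sirt5, which takes off succinyl and malonyl groups, averaged 15.6 FPKM in WBC and 71.96 FPKM in CA1, and Sirt3, the main mitochondrial deacetylase, 4.14 and 47.9 FPKM. Sirt4 averaged 4.87 FPKM in WBC and 2.01 FPKM in CA1. Between Sirt5 and Sirt3 in the order of CA1 levels came Hdac11 and Bap1, and after them Ehmt2 (46.1 FPKM), a methyltransferase of silent genes. Hdac11, the class IV deacetylase, averaged 0.451 FPKM in WBC, under the minimum mean of 1 FPKM set for testing, and 63.9 FPKM in CA1. The opposite order was seen for Suv420h2, which trimethylates histone H4 in constitutive heterochromatin (24.96 FPKM in WBC and 2.92 FPKM in CA1), for Hdac1, a class I deacetylase of corepressor complexes (20.5 and 4.78 FPKM), and for Prdm1, known as Blimp-1 of plasma cells (2.03 and 0.0582 FPKM). Bap1 averaged 54.7 and 53.4 FPKM. Ezh2, the polycomb methyltransferase of dividing cells, averaged 4.83 FPKM in WBC and 1.11 FPKM in CA1, while Ezh1, its counterpart in resting cells, averaged 24.2 and 20.3 FPKM. A second row of Ezh2, not used here, averaged 1.31 FPKM in WBC and 1.01 FPKM in CA1, where it nearly equalled the row used. Kdm4d was listed at 0 in all libraries but CA1 sham 2 (0.0125 FPKM), and Prdm9, the methyltransferase of meiotic recombination, was under 1 FPKM in all.

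**Figure D1:**
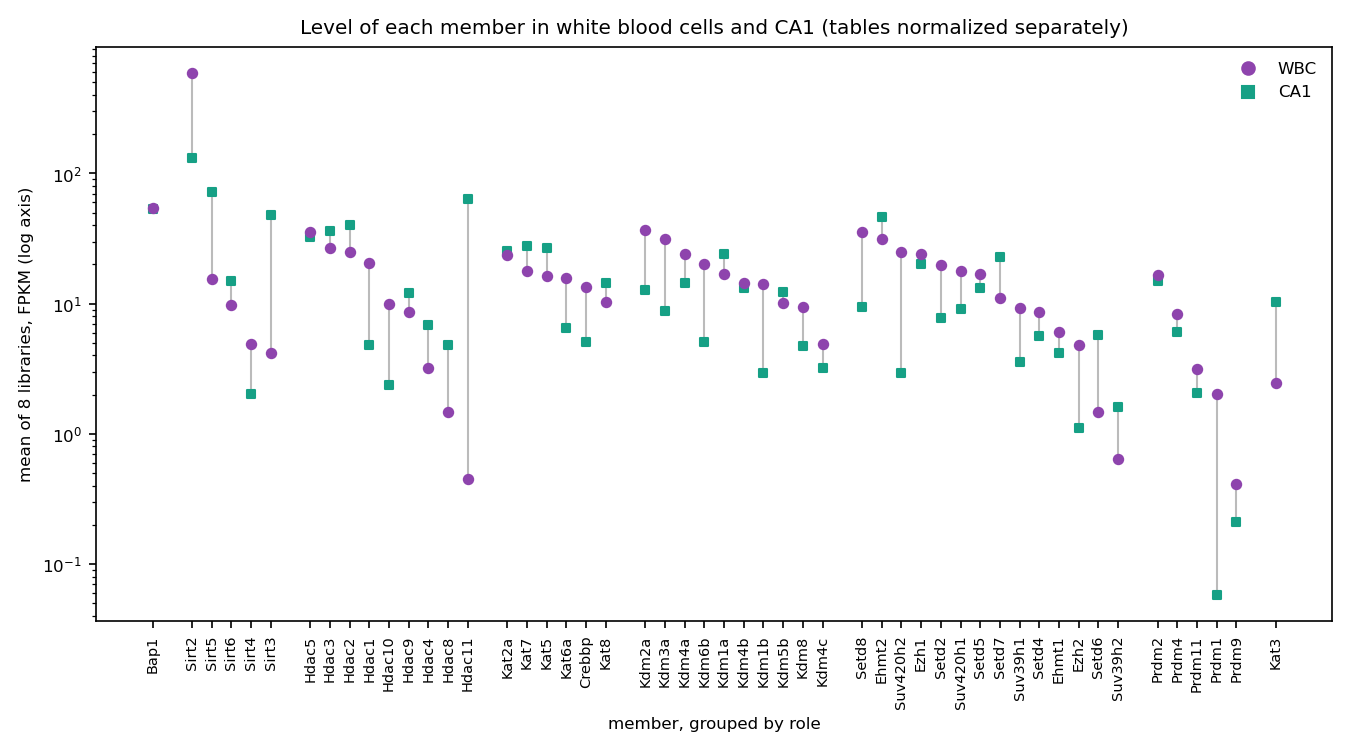
Mean FPKM over 8 libraries (log axis) of 51 members with a row in both tables, grouped by role, with WBC as circles and CA1 as squares; Kdm4d and the 3 members with a row in a single table are not drawn. Sirt2 is the highest member in both tissues, and Hdac11, Prdm1 and Suv420h2 lie far apart between the tissues, whose tables were normalized separately.

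In white blood cells, the question was which of these enzymes differ between TBI and sham 1 week after injury. Of the 53 members, 49 were tested, and Hdac11, Suv39h2, Prdm9 and Kdm4d lay under the minimum mean. None passed an adjusted p of 0.05 in limma, nor did any of the 13413 rows tested (0% of rows). At an unadjusted p under 0.05 limma gave 7 members higher and 4 lower in TBI, which is 14.3% and 8.16% of those tested, where 20.3% of all rows were past it, 7.82% higher and 12.5% lower. The difference was positive for 38 members and negative for 11, that is positive for 77.6% of them, against 49.6% of all rows, of which 50.4% were negative. Their median log2 difference was 0.08, against -0.003 over all rows. Both shares depended on the scaling. Quantile normalization gave 40 positive and 9 negative members, and 7880 and 5533 of all rows, with medians of 0.126 and 0.049. With quantile normalization the counts at an unadjusted p under 0.05 were 14 higher and 1 lower, and those of all rows 1521 and 1172 in place of 1049 and 1678. TBI and sham groups did not overlap for 8 members with TBI higher (16.3%, against 5.61% of all rows) and for 3 with TBI lower (6.12%, against 8.63%), together 11 members, against 14.2% of all rows. With quantile normalization these counts were 12 and 1, and those of all rows 1137 and 688 in place of 753 and 1158. Without TBI 1 there were 6 members higher and 3 lower at an unadjusted p under 0.05, 9 and 3 without overlap, and 34 positive and 15 negative differences. All rows then had 784 higher and 1411 lower at that threshold, 979 and 1294 without overlap, and 6509 positive and 6904 negative differences. Counts of members higher or lower in each role are counts of the sign of the log2 difference, since none passed.

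Bap1 had the smallest p of all members. In WBC it stood at 30.6, 45.3, 41.5 and 35.4 FPKM in the TBI libraries, against 69.2, 73.4, 79.9 and 62.1 FPKM in the sham libraries. Each TBI library lay below each sham library, with TBI 1 the lowest of all and sham 3 the highest. The means were 38.2 ± 6.47 FPKM in TBI and 71.1 ± 7.46 FPKM in sham (SD, n = 4 each), and the log2 difference was -0.90 ± 0.13 (SE), with a 95% interval of -1.20 to -0.59. It did not pass after adjustment over all rows (limma adjusted p = 0.127; 0.0826 to 0.231 over the alternative settings). The erythroid and platelet sums were also lower in TBI, and in both TBI 1 was the lowest library, as it was for Bap1. Among the sham libraries the order differed. Bap1 was highest in sham 3, where the platelet sum was lowest (8617 FPKM), and the erythroid sum was highest in sham 2 (23167 FPKM). The part of these markers in the Bap1 difference was not tested. Without TBI 1 the log2 difference of Bap1 was -0.80.

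The 150 bases before the RefSeq start of Bap1 (assembly GRCr8, chr16:6452976-6453125 on the plus strand) are shown because Bap1 carries the largest difference among the members. They hold 64.7% G and C and 12 CpG, and none of the 6 motifs searched on both strands: the GC box GGGCGG, the ETS core CCGGAA, the CCAAT box CCAAT, the E-box CACGTG, the GATA motif AGATAA and the core of the cyclic AMP response element, TGACG. For comparison stand Hdac5 (chr10:87688055-87688204 on the minus strand), also lower in TBI without overlap, and Prdm11 (chr3:99460425-99460574 on the minus strand) and Suv420h2, named Kmt5c in RefSeq (chr1:78135932-78136081 on the minus strand), both higher without overlap. Each is written from 5′ to 3′ on its gene's strand, and capitals mark matches to the motifs on either strand.
Bap1: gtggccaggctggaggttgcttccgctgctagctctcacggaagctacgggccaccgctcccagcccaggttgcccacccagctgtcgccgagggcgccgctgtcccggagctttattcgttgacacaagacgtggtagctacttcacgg
Hdac5: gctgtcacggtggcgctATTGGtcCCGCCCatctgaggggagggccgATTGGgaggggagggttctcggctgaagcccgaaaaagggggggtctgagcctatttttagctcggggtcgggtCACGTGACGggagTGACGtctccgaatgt
Prdm11: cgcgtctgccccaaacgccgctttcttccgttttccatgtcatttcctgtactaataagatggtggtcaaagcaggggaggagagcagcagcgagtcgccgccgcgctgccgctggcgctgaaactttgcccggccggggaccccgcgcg
Suv420h2: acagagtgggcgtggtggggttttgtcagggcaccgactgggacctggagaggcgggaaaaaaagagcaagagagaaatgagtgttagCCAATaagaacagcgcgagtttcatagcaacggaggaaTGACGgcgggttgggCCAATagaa
Prdm11 has no match, Hdac5 has 1 GC box, 2 CCAAT boxes, 1 E-box and 2 TGACG cores, and Suv420h2 has 2 CCAAT boxes and 1 TGACG core; in Hdac5 the E-box CACGTG and a TGACG core overlap. A match is a run of letters in this window, not a shown binding site. Over the 48 members with a promoter in the table, GGGCGG was present in 60.4%, against 27.8% of all 27455 promoters of the table and 35.2% of the 19004 of protein-coding genes. CCGGAA was present in 27.1% of members, against 10.4% and 12.4%, and TGACG in 31.2%, against 14% and 15.7%. CCAAT was present in 31.2%, against 23.7% and 25%, CACGTG in 2.08%, against 3.93% and 4.47%, and AGATAA in 2.08%, against 5.82% and 5.01%. The members' windows had a median of 64.3% G and C and 12 CpG, against 53.3% and 4 over all promoters and 56.7% and 6 over protein-coding ones, and the part of this composition in the motif shares was not tested.

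Among the sirtuins, 4 were higher and 2 lower in WBC of TBI rats, with a median log2 difference of 0.13. Sirt2 stood at 245, 502, 549 and 445 FPKM in the TBI libraries, against 476, 988, 819.6 and 698 FPKM in the sham libraries. Its TBI 1 and sham 1 were each the lowest of their group, and the groups overlapped because sham 1 lay below TBI 2 and TBI 3. The log2 difference was -0.79 ± 0.31 (SE) and did not pass (limma adjusted p = 0.203). The Sirt2 difference was -0.35 with quantile normalization. TBI 1 and sham 1 were also the lowest of their groups in the erythroid sum, whose part in the Sirt2 values was not tested. Sirt5 stood at 16.4, 17.7, 15.6 and 18.01 FPKM in the TBI libraries, against 12.2, 14.1, 14.7 and 16.1 FPKM in the sham libraries. Sham 4 lay within the range of the TBI libraries, and the log2 difference was 0.25 ± 0.10 (SE; limma adjusted p = 0.208). Sirt7 (0.12), Sirt3 (0.15), Sirt4, of the mitochondrion (0.14), and Sirt6, a nuclear sirtuin of DNA repair (-0.06), had overlapping groups.

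**Figure D2:**
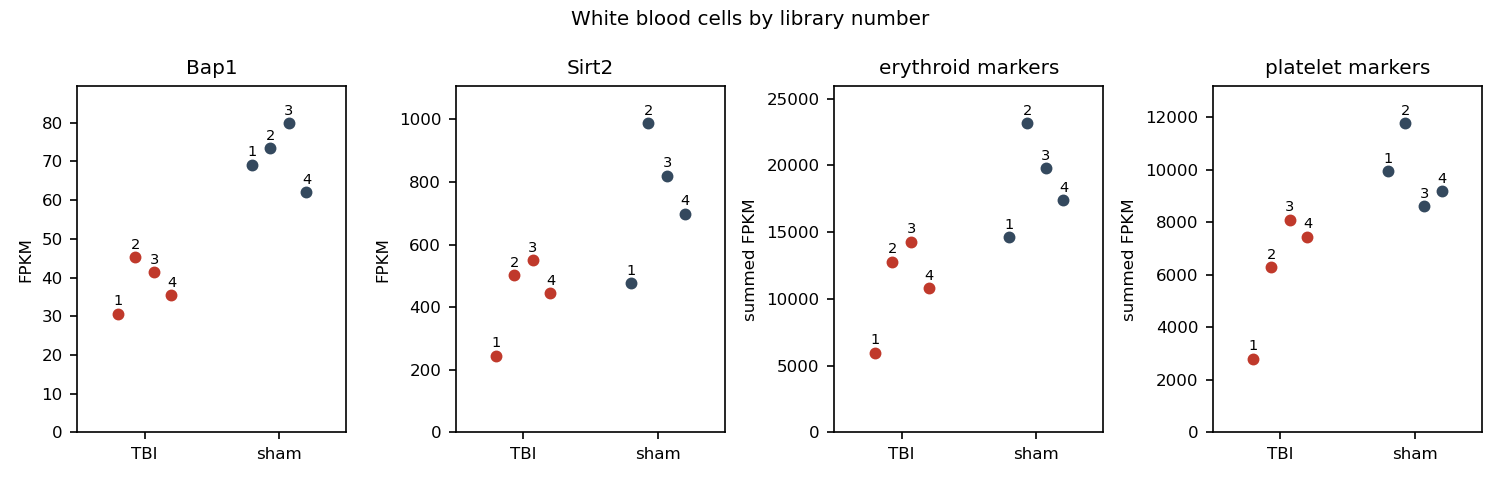
FPKM of Bap1 and Sirt2 and summed FPKM of 15 erythroid and 10 platelet markers in the WBC libraries, TBI left and sham right, with library numbers beside the points. Bap1 and both marker sums are lower in all 4 TBI libraries than in any sham library, Sirt2 groups overlap, and TBI 1 is the lowest point in each panel.

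Of 8 zinc-dependent deacetylases tested, 6 were higher and 2 lower (median 0.09). Hdac5 stood at 28.01, 34.5, 34.2 and 32.1 FPKM in the TBI libraries, against 41.3, 38.4, 36.3 and 38.8 FPKM in the sham libraries. All TBI libraries lay below all sham libraries, and TBI 1 was the lowest. The log2 difference was -0.27 ± 0.08 (SE; limma adjusted p = 0.156). Hdac10, a class IIb enzyme that deacetylates polyamines, stood at 11.2, 9.05, 10.9 and 12.9 FPKM in the TBI libraries, against 7.21, 9.38, 8.79 and 9.82 FPKM in the sham libraries. The groups overlapped, since TBI 2 lay below sham 2 and sham 4, and the log2 difference was 0.31 ± 0.13 (SE; limma adjusted p = 0.235). Among the class I enzymes Hdac3, the catalytic subunit of the NCoR and SMRT corepressors, stood at 23.7 to 30.1 FPKM in TBI, against 22.4 to 28.3 FPKM in sham, a log2 difference of 0.15. Hdac1 (0.08), Hdac2 (0.04) and Hdac8 (0.15), also of class I, and Hdac4 (0.10) and Hdac9 (-0.14), of class IIa, had overlapping groups.

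Of 6 acetyltransferases 5 were higher and 1 lower, with a median of 0.05, and the groups overlapped for all 6. Kat2a, the GCN5 acetyltransferase of the SAGA coactivator, had the smallest p of the 6 and stood at 25.3, 24.8, 24.1 and 27.1 FPKM in the TBI libraries, against 17.9, 20.97, 23.5 and 24.4 FPKM in the sham libraries. Sham 4 lay inside the TBI range, and the log2 difference was 0.23 ± 0.10 (SE; limma adjusted p = 0.259). Crebbp, the coactivator CBP, stood at 12.4 to 16.5 FPKM in TBI, against 12.4 to 13.9 FPKM in sham. Kat6a, the MOZ enzyme needed by blood stem cells, stood at 14.7 to 17.8 FPKM in TBI, against 14.2 to 16.5 FPKM in sham. Their log2 differences were 0.09 and 0.04, and those of Kat5 (Tip60), Kat8 (MOF) and Kat7 (HBO1) were 0.05, 0.01 and -0.02, the last of which was 0.03 with quantile normalization.

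Among 10 lysine demethylases 8 were higher and 2 lower in TBI (median 0.09), and for 4 of them the groups did not overlap, all with TBI higher, as for 5.61% of all rows. Only Kdm1a among the 10 had an unadjusted p under 0.05. Kdm1a, the flavin-dependent demethylase LSD1 of the CoREST complex, stood at 17.4, 19.2, 17.7 and 18.4 FPKM in the TBI libraries, against 14.9, 16.4, 15.7 and 15.7 FPKM in the sham libraries. The lowest TBI library lay above the highest sham library, and the log2 difference was 0.21 ± 0.06 (SE; limma adjusted p = 0.152). Kdm2a stood at 43.5, 37.8, 37.7 and 37.9 FPKM in the TBI libraries, against 34.6, 36.99, 32.6 and 35.5 FPKM in the sham libraries. Here TBI 1 was above the other 3 TBI libraries, which were almost equal and close to sham 2, and the log2 difference was 0.16 ± 0.08 (SE; limma adjusted p = 0.265). Kdm4a and Kdm4b, Jumonji enzymes that act on histone H3, stood at 24.4 to 25.6 FPKM in TBI, against 22.2 to 23.97 FPKM in sham, and at 14.7 to 15.4 FPKM in TBI, against 12.1 to 14.5 FPKM in sham, with log2 differences of 0.10 and 0.13. For the other 6, differences ran from -0.03 (Kdm6b, an eraser of the polycomb methyl mark that inflammatory signals induce in macrophages) to 0.09 (Kdm8, a Jumonji hydroxylase, and Kdm1b), and the groups overlapped. Kdm6b was at 0.03 with quantile normalization.

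Of 13 methyltransferases tested in WBC, 11 were higher and 2 lower (median 0.06). Suv420h2 stood at 33.5, 26.4, 26.2 and 26.9 FPKM in the TBI libraries, against 21.4, 24.9, 18.2 and 22.1 FPKM in the sham libraries. TBI 1 was far above the other TBI libraries, which still exceeded sham 2, the highest sham library. The log2 difference was 0.38 ± 0.12 (SE; limma adjusted p = 0.151). Setd4 stood at 11.6, 8.84, 8.69 and 9.39 FPKM in the TBI libraries, against 6.49, 8.61, 7.40 and 8.42 FPKM in the sham libraries. The groups were apart by little, with TBI 3 next to sham 2 and TBI 1 the highest, and the log2 difference was 0.30 ± 0.12 (SE; limma adjusted p = 0.226). In the other direction Ezh1 stood at 17.8, 22.7, 23.4 and 23.5 FPKM in the TBI libraries, against 28.8, 26.8, 24.9 and 25.4 FPKM in the sham libraries. TBI 1 was the lowest library and the groups did not overlap. The log2 difference was -0.28 ± 0.10 (SE; limma adjusted p = 0.190), while Ezh2 stood at 3.95 to 5.56 FPKM in TBI, against 4.07 to 5.12 FPKM in sham, a difference of 0.05.

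Ehmt1 and Ehmt2, the GLP and G9a pair that dimethylates histone H3 in silent euchromatin, had log2 differences of 0.18 and 0.13 with overlapping groups. Setd2, which methylates histone H3 along transcribed genes, had -0.04 (0.02 with quantile normalization), Suv39h1, of pericentric heterochromatin, 0.06, and Setd8 0.08. Setd8 varied widely among the sham libraries, at 33.9 to 38.5 FPKM in TBI, against 25.7 to 47.7 FPKM in sham. Suv420h1, the partner enzyme of Suv420h2 in methylating histone H4, had 0.03.

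All 4 PRDM genes tested were higher in WBC of TBI rats, with a median log2 difference of 0.29. PRDM proteins join a SET-related domain to zinc fingers, and several act as transcription factors with no methyltransferase activity of their own. Prdm4, which binds the p75 neurotrophin receptor, stood at 9.94, 9.21, 9.15 and 9.26 FPKM in the TBI libraries, against 6.80, 7.73, 7.52 and 6.55 FPKM in the sham libraries. TBI 2, 3 and 4 were nearly equal, TBI 1 was higher, and every TBI library lay above every sham library. The log2 difference was 0.37 ± 0.08 (SE; limma adjusted p = 0.127). Prdm11 stood at 4.11, 3.90, 3.22 and 3.52 FPKM in the TBI libraries, against 2.69, 2.60, 2.42 and 2.75 FPKM in the sham libraries. The groups were again apart, by more than the spread of the sham libraries, and the log2 difference was 0.42 ± 0.10 (SE; limma adjusted p = 0.132). Prdm1 (1.70 to 2.89 FPKM in TBI, against 1.37 to 2.27 FPKM in sham) and Prdm2, the RIZ protein (16.4 to 18.3 FPKM in TBI, against 14.2 to 18.1 FPKM in sham), had overlapping groups and differences of 0.21 and 0.06. The B cell markers, to whose lineage Prdm1 belongs in its plasma cells, summed to 572.8 to 1046 FPKM in TBI, against 860.6 to 1106 FPKM in sham. Kat3, which is no histone enzyme, stood at 1.78 to 2.73 FPKM in TBI, against 2.33 to 2.80 FPKM in sham.

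**Figure D3:**
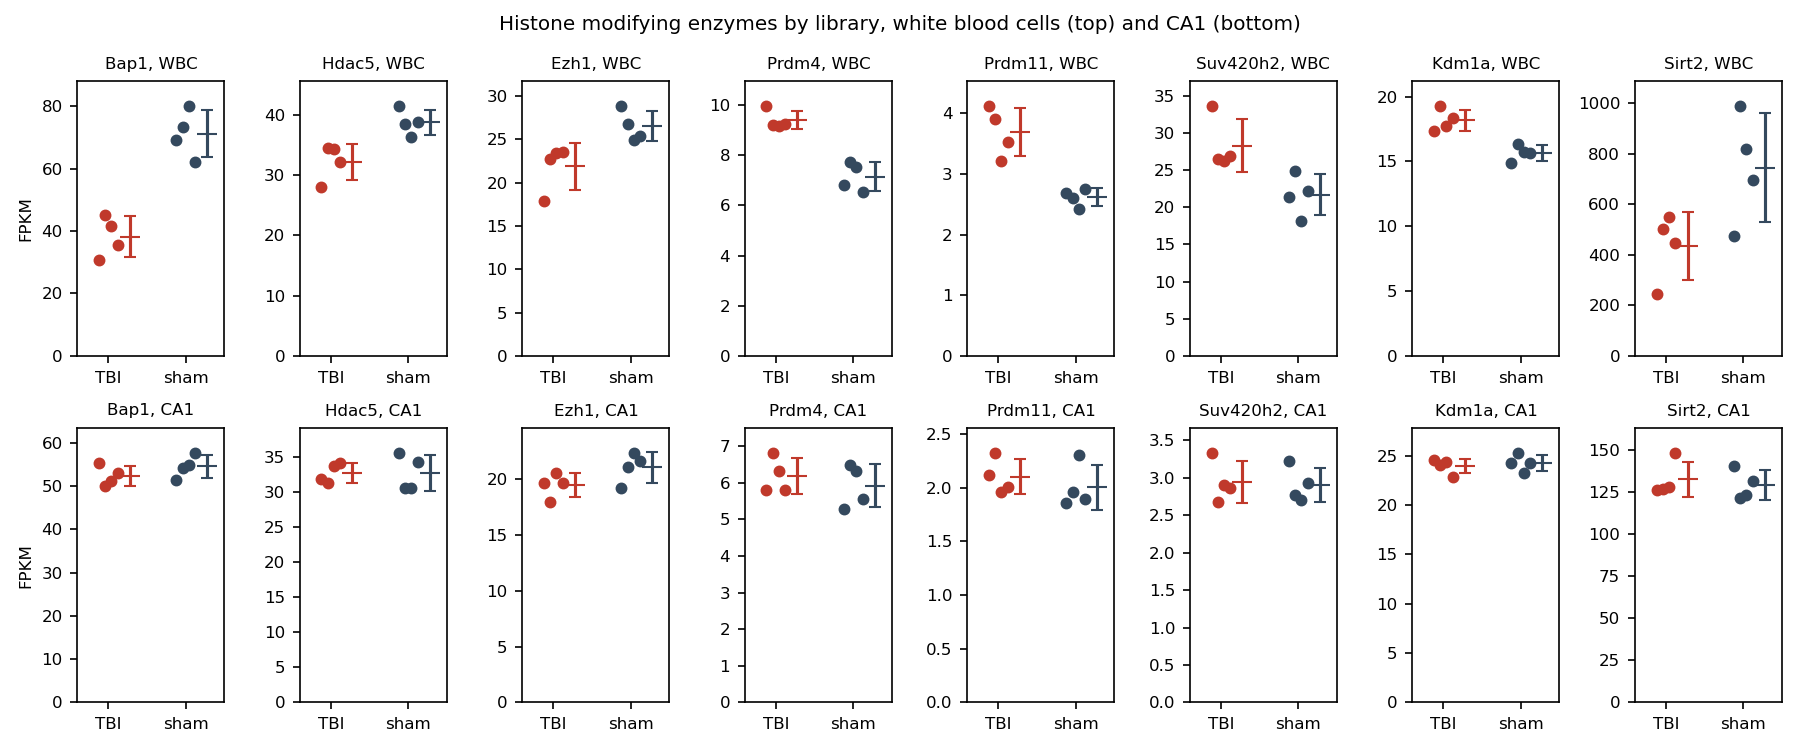
FPKM of 8 members in each library, TBI left and sham right, with WBC in the upper and CA1 in the lower row; the dash and bar beside the points are the mean and SD of 4 libraries. In WBC the groups are apart for all members shown but Sirt2, and in CA1 the groups of all 8 overlap. All 8 had an unadjusted p under 0.05 in limma in WBC, so this contrast follows in part from the choice of members. Of all rows in WBC, 5.61% were apart with TBI higher and 8.63% with TBI lower. Kdm6b and Suv420h1, whose groups are apart in CA1, are not drawn.

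In CA1, the question was which of these enzymes differ in the hippocampus of the injured animal. Of 54 members 51 were tested, and Prdm1, Prdm9 and Kdm4d were under the minimum mean. None passed an adjusted p of 0.05 in limma, where 1 of 14637 rows did (0.00683%). At an unadjusted p under 0.05, 1 member was higher and none lower, where 5.14% of all rows were past it, 2.54% higher and 2.6% lower. The difference was positive for 21 members and negative for 30, with a median of -0.04, against -0.01 over all rows, of which 46.7% were positive and 53.3% negative. The groups did not overlap for 2 members, both lower in TBI (3.92%); of all rows 1.6% were apart with TBI lower and 1.28% with TBI higher, 2.88% together.

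Hdac11 was the member with the smallest p and stood at 62.8, 75.9, 61.7 and 72.8 FPKM in the TBI libraries, against 63.6, 57.7, 60.7 and 55.8 FPKM in the sham libraries. TBI 2 and TBI 4 lay above all sham libraries, while TBI 1 and TBI 3 lay below sham 1. The log2 difference was 0.19 ± 0.08 (SE; limma adjusted p = 0.891). Kdm6b stood at 5.30, 4.54, 5.05 and 4.42 FPKM in the TBI libraries, against 5.39, 5.44, 5.32 and 5.36 FPKM in the sham libraries. The sham libraries agreed closely, TBI 1 lay just below them and TBI 4 was the lowest, and the log2 difference was -0.14 ± 0.07 (SE; limma adjusted p = 0.891). Suv420h1 stood at 8.90, 8.70, 9.26 and 8.16 FPKM in the TBI libraries, against 9.40, 9.56, 9.42 and 9.52 FPKM in the sham libraries. All TBI libraries lay below the sham libraries, TBI 3 by the least, and the log2 difference was -0.11 ± 0.05 (SE; limma adjusted p = 0.891).

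For the remaining CA1 members the groups overlapped. Of 11 lysine demethylases 10 were lower and 1 higher (median -0.05), from -0.14 for Kdm6b to 0.01 for Kdm3a, and Kdm1a stood at 22.9 to 24.6 FPKM in TBI, against 23.2 to 25.3 FPKM in sham. Of 15 methyltransferases 10 were lower and 5 higher (median -0.06). Setd7, which adds a single methyl group to histone H3 and to many other proteins, stood at 20.7 to 22.4 FPKM in TBI, against 19.4 to 27.9 FPKM in sham, a difference of -0.18. Ezh1 stood at 17.96 to 20.5 FPKM in TBI, against 19.2 to 22.4 FPKM in sham (-0.11), Dot1l, which methylates the core of histone H3, at 2.17 to 3.04 FPKM in TBI, against 2.53 to 2.90 FPKM in sham (-0.14), and Setd6, a methyltransferase of the NF-kB subunit RelA, at 4.77 to 6.51 FPKM in TBI, against 5.63 to 6.57 FPKM in sham (-0.13). Among 9 zinc-dependent deacetylases 6 were higher and 3 lower (median 0.04). Hdac9 varied widely among the sham libraries, at 9.57 to 11.7 FPKM in TBI, against 9.80 to 15.8 FPKM in sham (-0.25). Hdac8 (0.17), Hdac10 (0.17) and Hdac2, of class I (-0.09), overlapped between groups, as did Hdac5, at 31.2 to 34.1 FPKM in TBI, against 30.5 to 35.5 FPKM in sham. The 5 sirtuins split into 3 higher and 2 lower (median 0.03), and Sirt2 stood at 127 to 149 FPKM in TBI, against 122 to 141 FPKM in sham. The 6 acetyltransferases split into 2 higher and 4 lower (median -0.01), with Crebbp the farthest from 0, at 4.05 to 5.44 FPKM in TBI, against 4.98 to 5.78 FPKM in sham (-0.14). The 3 PRDM genes tested had log2 differences of 0.05 to 0.06, within their spread. Kat3 had a difference of 0.12.

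Markers of the choroid plexus, a tissue that borders the hippocampus, summed to 179.9 to 2743 FPKM in the CA1 libraries of TBI rats, against 18.8 to 1314 FPKM in those of sham rats. Of 10 such markers 8 were higher in TBI and Otx2 was at 0 in all CA1 libraries. Of 11 pyramidal neuron markers 10 were lower in TBI, with sums of 6140 to 6607 FPKM, against 6022 to 7852 FPKM in sham. All 7 endothelial markers measured were lower in TBI (103 to 113 FPKM, against 106 to 163 FPKM in sham), as were 6 of 7 astrocyte markers (2264 to 2651 FPKM, against 2259 to 3162 FPKM in sham), and these sums overlapped. Their part in the differences of the members was not tested.

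**Figure D4:**
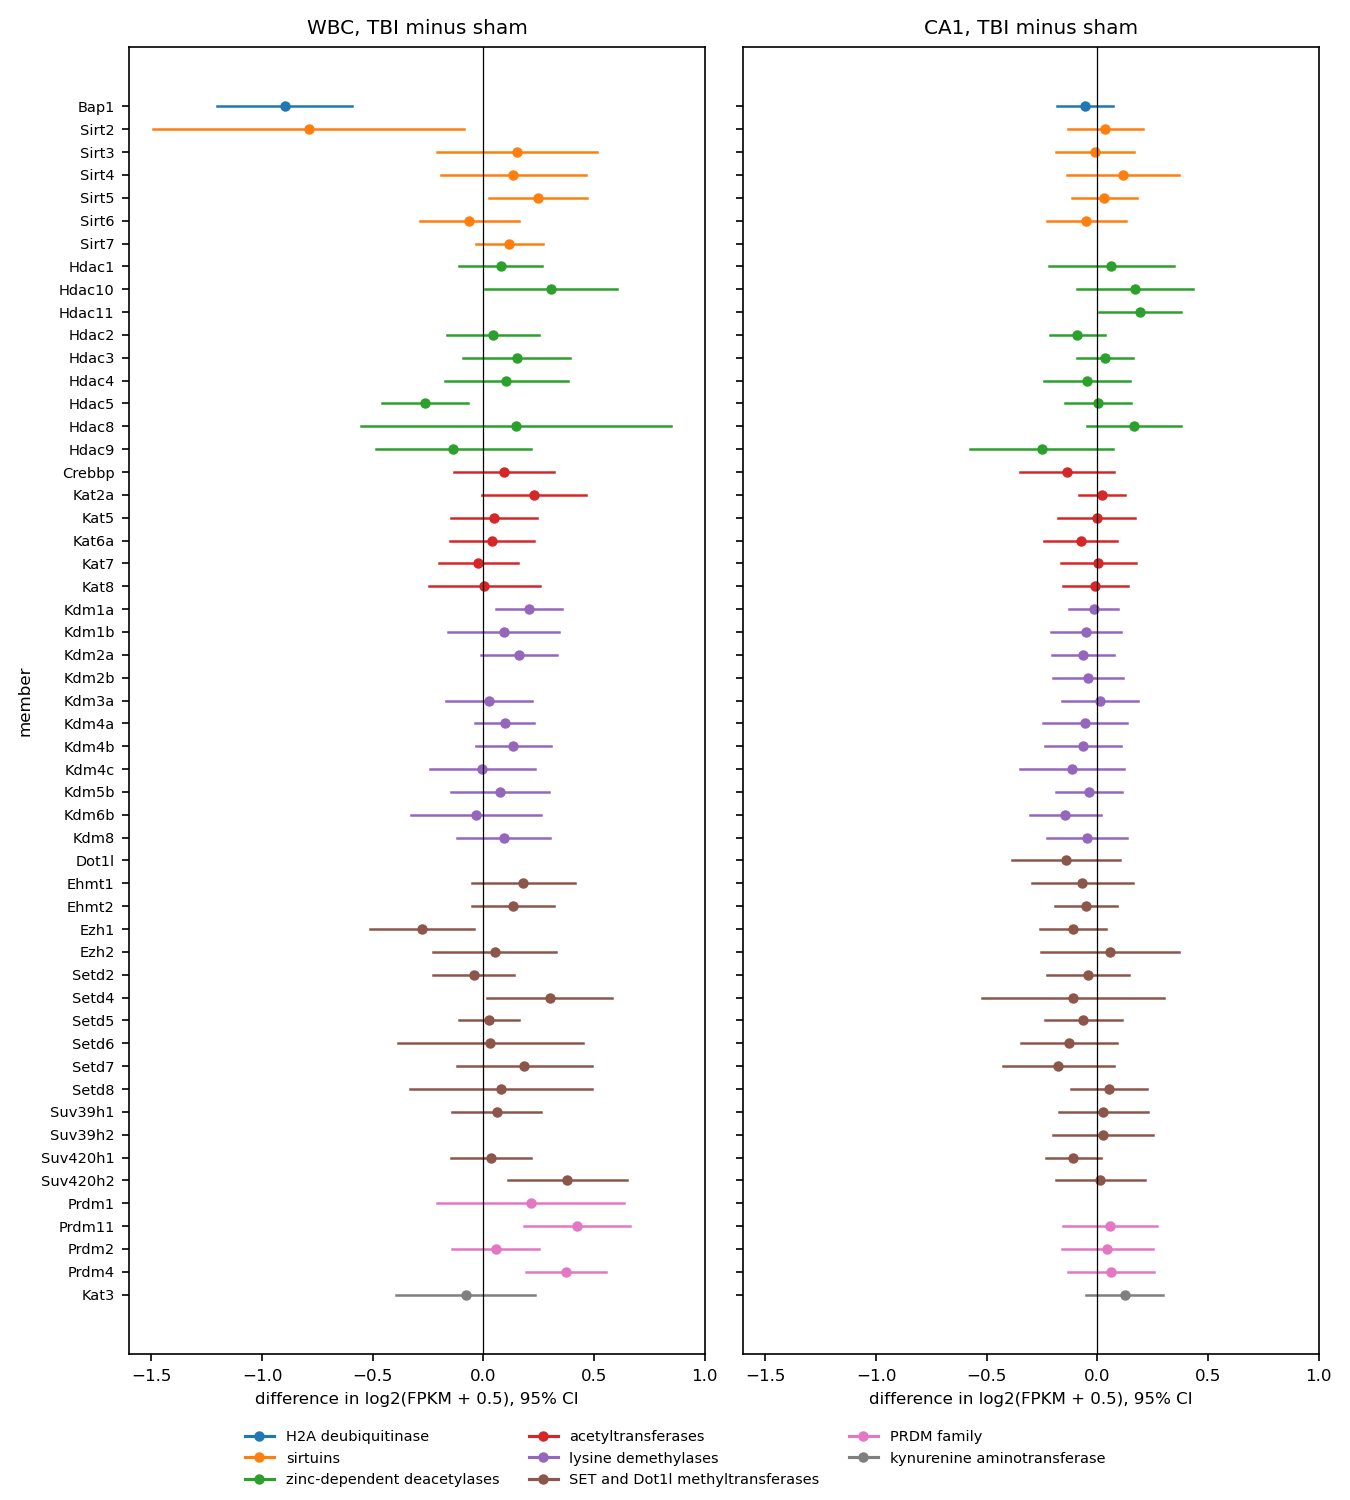
Difference between TBI and sham in log2(FPKM + 0.5) for each member tested, WBC left and CA1 right, coloured by role; points are limma estimates and lines 95% intervals. In WBC, Bap1 lies at -0.90 and 38 of 49 points lie above 0; in CA1 all points lie between -0.25 and 0.19.

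Whether the injury went with a different change in the tissues was tested by the difference between the WBC and the CA1 effect, over 7570 genes tested in both, 47 of them members. Bap1 alone among the members passed, as did 0.41% of all genes, 0.0528% higher and 0.357% lower. Its log2 difference was -0.90 in WBC and -0.06 in CA1, where it stood at 55.2, 50.03, 51.2 and 53.05 FPKM in the TBI libraries, against 51.4, 54.04, 54.9 and 57.6 FPKM in the sham libraries, with overlapping groups. The difference between tissues was -0.84 ± 0.15 (SE), with a 95% interval of -1.15 to -0.53 (limma adjusted p = 0.0239). All 4 TBI libraries were below sham in WBC, and in CA1 TBI 1 was above 3 of the 4 sham libraries. The value stayed between -0.93 and -0.66 over all settings, but the call did not: limma adjusted p was 0.0827 with the replicate number as a block, 0.0549 without CA1 TBI 1, 0.067 without CA1 TBI 4, 0.0594 without CA1 sham 2, 0.0648 without CA1 sham 3, 0.0528 without WBC TBI 4 and 0.0506 without WBC sham 2.

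Among all 47 members, 37 had a positive difference between tissues, against 49% of all genes, of which 51% were negative, and the median over the 47 was 0.12, against -0.01 over all genes. Quantile normalization gave 39 positive and 8 negative members, and 4512 and 3058 of all genes, with medians of 0.148 and 0.050. At an unadjusted p under 0.05, 5 members were higher and 3, Bap1 included, lower in WBC relative to CA1, where 19.7% of all genes were past it, 7.09% higher and 12.7% lower. Kdm1a had 0.23 ± 0.08 (SE; limma adjusted p = 0.125), Prdm11 0.37, Prdm4 0.31, Suv420h2 0.36 and Kdm2a 0.23. In the other direction stood Sirt2 at -0.82 ± 0.32 (SE; limma adjusted p = 0.169) and Hdac5 at -0.27, followed by Kat3 (-0.20) and Ezh1 (-0.17). All 10 demethylases tested in both tissues had a positive difference, from 0.01 for Kdm3a to 0.23 for Kdm2a, of which Kdm1a and Kdm2a had an unadjusted p under 0.05. None of these passed after adjustment.

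Other enzymes of the same kinds, and the proteins that hold members in their complexes, were described from 2 lists. Of 21 other writers and erasers tested in WBC, 14 were higher and 7 lower (median 0.07), with 3 higher (14.3%) and 0 lower at an unadjusted p under 0.05, where 7.82% of all rows were higher and 12.5% lower. These were the coactivator acetyltransferase Ncoa1 (11.7 to 12.4 FPKM in TBI, against 9.73 to 10.9 FPKM in sham, log2 difference 0.21), the arginine methyltransferase Carm1 (15.3 to 16.8 FPKM in TBI, against 11.2 to 15.3 FPKM in sham, 0.25) and Taf1, the largest subunit of TFIID (17.2 to 18.6 FPKM in TBI, against 13.97 to 16.8 FPKM in sham, 0.19), each with groups apart, as they were with TBI higher for 4 of the 21 (19.0%) and 5.61% of all rows. Of 43 complex partners 26 were higher and 17 lower (median 0.05), with 4 higher (9.30%) and 2 lower (4.65%) at that threshold. Cbx7, a polycomb protein that reads the methyl mark written by Ezh1 and Ezh2, stood at 25.2, 23.4, 24.02 and 31.5 FPKM in the TBI libraries, against 16.9, 20.1, 18.9 and 20.3 FPKM in the sham libraries. Its groups did not overlap, and the log2 difference was 0.43 ± 0.11 (SE; limma adjusted p = 0.132). Groups were apart with TBI higher for 4 of the 43 partners (9.30%) and with TBI lower for 0, against 5.61% and 8.63% of all rows. Foxk1 and Ogt, partners of Bap1, stood at 13.98 to 15.1 FPKM in TBI, against 11.4 to 13.8 FPKM in sham, and at 73.7 to 89.3 FPKM in TBI, against 67.6 to 75.8 FPKM in sham, with log2 differences of 0.22 and 0.23. Hcfc1, another partner of Bap1, stood at 2.57 to 3.41 FPKM in TBI, against 3.11 to 3.77 FPKM in sham, with a log2 difference of -0.25 and overlapping groups. The 2 partners lower at an unadjusted p under 0.05 were Sin3b, a scaffold of Hdac1 and Hdac2 (71.4 to 141 FPKM in TBI, against 133 to 170.1 FPKM in sham, -0.53), and Supt7l, of the SAGA complex (1.51 to 2.46 FPKM in TBI, against 2.11 to 2.73 FPKM in sham, -0.37), both with overlapping groups. Hcfc1, Sin3b and Supt7l lie outside the rule for named genes; they were chosen after seeing their values. None of the listed genes passed in limma in either tissue.

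In CA1, 11 of 24 other writers and erasers were higher and 13 lower, none at an unadjusted p under 0.05 in limma, and Jmjd6 (0.12), Nsd1 (-0.19) and Mll5 (-0.12) had the smallest p. Of 44 complex partners 19 were higher and 25 lower, 2 of them lower (4.55%) and 0 higher at that threshold, where 2.6% of all rows were lower and 2.54% higher. Rnf2, the ubiquitin ligase that puts on the mark which Bap1 removes, stood at 18.3, 17.1, 18.4 and 15.2 FPKM in the TBI libraries, against 19.4, 19.8, 20.2 and 20.2 FPKM in the sham libraries. All TBI libraries lay below all sham libraries, and the log2 difference was -0.21 ± 0.07 (SE; limma adjusted p = 0.891). Groups were apart with TBI lower for 2 of the 44 partners (4.55%) and with TBI higher for 1 (2.27%), against 1.6% and 1.28% of all rows. Rcor2, of the CoREST family that binds Kdm1a, had -0.23, and Tada2b, an adaptor of Kat2a in SAGA, -0.11. Without CA1 sham 1 the counts at an unadjusted p under 0.05 were 5 and 7 in these lists, and those of all rows 633 higher and 1169 lower in place of 372 and 380.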

How the data were processed

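The values are FPKM, which the authors deposited as 1 table per tissue; per the submitters' processing notes, TopHat, TopHat2, Bowtie, Bowtie2, Cufflinks, Cuffdiff and the rat build rn5 were used, and their versions, annotation and normalization were not given in the sources used here. A status stands beside each FPKM, and all members were OK. Depth is unknown.

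The members and lists were chosen with earlier results of these data known. Of rows with the same symbol the one with the highest mean was used; Ezh2 and Kat5 had a second row in both tables, Suv420h2 in CA1 and Suv420h1 in WBC. Rows with a mean of at least 1 FPKM over 8 libraries and status OK throughout were tested as log2(FPKM + 0.5) by limma 3.58.1 (lmFit, eBayes with a trend, 2-sided; R 4.3.3), 14637 in CA1 and 13413 in WBC, with Benjamini-Hochberg adjustment over all of them and a threshold of 0.05. The tissue difference is the interaction term over 7570 symbols, without a block. Named members are those that passed, then the smallest p up to 10 per direction and tissue, 5 per direction for the tissue difference, and the highest member of each role; members outside that rule are given to complete their role. Of the partner lists the 3 smallest p are named.

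Promoter sequences are RefSeq's (GRCr8), a different build from the files, matched by symbol for 51 members and by synonym for 4; 48 had one. No coordinates from the files were used. Alternatives were median-ratio scaling, quantile normalization, a pseudocount of 0.1 or 1, a minimum mean of 5 FPKM or none, no trend, the replicate number as a block, and each library left out. Python 3.11.15, pandas 2.3.3 and matplotlib 3.10.9 served for tables and figures.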

Additional observations from a re-analysis of the deposited data

Results flagged for a closer look

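Bap1 differed between the tissues in its injury effect, by -0.84 on the log2 scale (WBC minus CA1, limma adjusted p = 0.0239), lower in 4 of 4 TBI libraries than in any sham library of WBC. The call did not hold in every setting, with a limma adjusted p of 0.0827 with the replicate number as a block. In WBC alone Bap1 did not pass (limma adjusted p = 0.127).

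In 9 of 136 groups of 4 libraries, 1 library lay far from the other 3, where chance gives about 1 in 20. In WBC, TBI 1 stood apart for Ezh1 (17.8 FPKM, against 22.7 to 23.5 in the other TBI libraries), Hdac3 (23.7, against 29.1 to 30.1), Kdm2a (43.5, against 37.7 to 37.9), Prdm4 (9.94, against 9.15 to 9.26) and Suv420h2 (33.5, against 26.2 to 26.9). Prdm2 stood apart in WBC TBI 2 (18.3, against 16.4 to 16.7 FPKM). In CA1, TBI 3 stood apart for Kdm4c (3.44, against 2.86 to 2.91 FPKM) and Setd7 (22.4, against 20.7 to 21.0 FPKM), and TBI 4 for Sirt2 (149, against 127 to 128 FPKM).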

How the results depend on the processing

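No member passed in WBC or CA1 under any setting in limma, with 7 higher and 4 lower (WBC) and 1 higher and 0 lower (CA1) at an unadjusted p under 0.05. Quantile normalization moved the WBC counts to 14 higher and 1 lower, and those of the tissue difference to 11 and 1 in place of 5 and 3, where all genes went to 778 and 565 in place of 537 and 958. The CA1 count of 1 higher became 0 with quantile normalization and without the trend, and the tissue difference had 3 higher with a minimum mean of 5 FPKM. Leaving out each library gave 4 to 8 higher and 2 to 4 lower in WBC, 0 to 2 and 0 to 3 in CA1, and 4 to 7 and 2 to 3 for the tissue difference, where 0 to 1 members passed; the Bap1 value ran from -0.93 to -0.74. The lowest WBC counts came without TBI 4 or sham 1 (4 higher) and without sham 2 (2 lower). All WBC rows then had 743 and 865 higher and 1369 lower, in place of 1049 and 1678. In CA1, 3 members were lower without TBI 1 or sham 1, and 2 higher without sham 1. Without sham 1 all CA1 rows went to 633 higher and 1169 lower, and without TBI 1 to 567 and 488, in place of 372 and 380. No member was higher without CA1 TBI 2, TBI 4, sham 2 or sham 3, where all rows had 237, 261, 277 and 257 higher.

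Signs turned, all near 0, under quantile normalization in WBC for Setd2 (0.019), Kat7 (0.030) and Kdm6b (0.032). Leaving out 1 library at a time gave -0.002 (without sham 3) to 0.158 for Hdac1 in CA1, and in WBC -0.237 to 0.002 (without TBI 4) for Hdac9, -0.102 to 0.008 (without TBI 3) for Sirt6, -0.137 to 0.030 (without TBI 2) for Kat3, -0.068 to 0.034 (without sham 3) for Kat7 and -0.098 to 0.088 (without sham 2) for Kdm6b. The cause was not tested.

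With equal replicate numbers as a block, the members that passed in the tissue difference went to 0 (Bap1 adjusted p = 0.0827), 8 were higher at an unadjusted p under 0.05, and 1 was lower in CA1. Same-numbered CA1 and WBC libraries of a group correlated at 0.0476 to 0.202, and each CA1 library correlated best with the WBC library of its own number. Same-numbered TBI and sham libraries of a tissue, which cannot come from the same rat, correlated at -0.00821 to 0.24. Labels do not say whether same-numbered CA1 and WBC libraries came from the same rat, so the main test did not pair them. These correlations are the only check made of it, and a common rat was not otherwise tested. Bap1 passed in the test without pairing (limma adjusted p = 0.0239) and not with the block (limma adjusted p = 0.0827). If equal numbers do mark the same rat, the result with the block is the one that applies. Depth is unknown, so what the number of fragments limits cannot be given.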
